A study of Mus musculus with 12 samples.

Results

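The serpins are a family of protease inhibitors, and their expression was followed in the mouse liver line BNL CL.2, with and without iron and with and without macrophages. The members were the genes whose symbol starts with Serpin among the probe sets annotated to a single gene. There were 40 such genes of 18194 genes tested, each read by 1 probe set, that of the highest mean signal. By clade letter they were 14 of clade A, 18 of clade B, 1 each of clades C, D, G and H, and 2 each of clades F and I. The members were chosen by gene symbol, but the family itself was selected on a measured value, the change of Serpinb1b with iron in these same arrays. That change with iron is therefore given as a description.

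BNL CL.2 cells were cultured for 24 h in 4 groups of 3 arrays, all facing a culture insert that held further cells. In the group alone and in the group FAC, the insert held more BNL CL.2 cells, and FAC also received 100 micromolar ferric ammonium citrate (FAC), a soluble source of iron. In the group RAW and in the group RAW_FAC, macrophages of the mouse line RAW 264.7 filled the insert, and RAW_FAC received FAC as well. All samples came from 1 cell line in medium with serum, and the labels do not say whether the replicates were separate cultures. The p values thus refer only to the spread among these samples, which may be technical. Values are log2 signals, and a change is a difference of log2 signals. The comparisons asked what iron did to the liver cells, what macrophages did, and whether the first depended on the second.

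A serpin inhibits a protease by offering an exposed loop as bait. Once the protease cuts the loop, the serpin changes its fold and traps the enzyme in a complex that is not released. Clade A holds secreted plasma proteins made largely by hepatocytes, such as the alpha-1-antitrypsins. Clade B serpins lack a classical secretion signal and act mostly inside cells, where they protect against leaked lysosomal or granule proteases. Some family members, such as the collagen chaperone Serpinh1, inhibit no protease.

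In RefSeq (GRCm38.p6), 11 members lie on chromosome 13, all of clade B, in the order Serpinb1a, Serpinb6b, Serpinb9, Serpinb9b, Serpinb1b, Serpinb9c, Serpinb9d, Serpinb9g, Serpinb6e, Serpinb6c and Serpinb6a. A further 13 members lie on chromosome 12 and 8 on chromosome 1. The promoter windows of the chromosome 13 genes Serpinb1b and Serpinb6c are printed below. These are the 2 members that passed a test of the average change with iron in 1 of the models used. Printed with them are the windows of Serpinb6a, the member next to Serpinb6c in this order. The signal of Serpinb6a stayed within 13.64 to 13.79 on all 12 arrays. Each window runs from 250 bases before to 50 bases after a transcription start, 5′ to 3′ on the gene's strand. Capitals mark matches to 2 motifs searched on both strands. One was TGACNNNGC, the core of the antioxidant response element, and the other was the core of the interferon-stimulated response element, GAAA and GAAA with any 2 bases between them.
Serpinb1b, chr13:33083853-33084152, plus strand: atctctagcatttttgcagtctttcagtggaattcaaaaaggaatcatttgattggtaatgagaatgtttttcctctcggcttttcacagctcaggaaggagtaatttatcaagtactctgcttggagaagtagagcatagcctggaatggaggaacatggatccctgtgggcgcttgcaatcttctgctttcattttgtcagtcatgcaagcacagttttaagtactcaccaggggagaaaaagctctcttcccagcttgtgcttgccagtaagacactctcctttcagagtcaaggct
Serpinb6c, chr13:33905142-33905441, minus strand: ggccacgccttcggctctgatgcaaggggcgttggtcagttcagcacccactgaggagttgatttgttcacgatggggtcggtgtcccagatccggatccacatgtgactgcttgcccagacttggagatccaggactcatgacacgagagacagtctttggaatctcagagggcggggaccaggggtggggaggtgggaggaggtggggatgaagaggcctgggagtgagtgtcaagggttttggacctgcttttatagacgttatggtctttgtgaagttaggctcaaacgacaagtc
Serpinb6a, chr13:34002745-34003044, minus strand: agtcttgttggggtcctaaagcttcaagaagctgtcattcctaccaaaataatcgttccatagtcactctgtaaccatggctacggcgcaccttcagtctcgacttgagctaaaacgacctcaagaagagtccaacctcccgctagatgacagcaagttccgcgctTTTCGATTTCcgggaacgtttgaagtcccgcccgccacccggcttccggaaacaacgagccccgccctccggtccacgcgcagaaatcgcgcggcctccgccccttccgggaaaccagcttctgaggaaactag
Serpinb6a, chr13:33936034-33936333, minus strand: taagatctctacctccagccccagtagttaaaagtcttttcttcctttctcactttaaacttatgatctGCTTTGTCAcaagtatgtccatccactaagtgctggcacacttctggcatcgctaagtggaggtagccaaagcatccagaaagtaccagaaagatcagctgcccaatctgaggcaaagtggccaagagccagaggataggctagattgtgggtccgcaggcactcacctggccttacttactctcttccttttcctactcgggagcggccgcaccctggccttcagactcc
The windows of Serpinb1b and Serpinb6c held neither motif. Serpinb6a has 2 windows in RefSeq. The first held the interferon-stimulated core at position -84 from the start, and the second the antioxidant core at position -181. Both motifs read on the strand opposite to the printed one, so the capitals show their reverse complements. The antioxidant core was found in 12.4% of 32851 promoter windows of all genes and in 3 of 40 windows of the 34 members that had one, namely in windows of Serpinb12, Serpinb6a and Serpind1. The interferon-stimulated core was found in 3.44% of all windows and in 3 of the 40, those of Serpina3a, Serpinb6a and Serpinb9. These matches are letters in a window and no measurement of binding.

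Array medians lay between 5.63 and 5.68, and arrays of 1 group correlated at 0.997 to 0.998 across genes. The median of all gene means was 6.82, and a member below it is called low here, since signals of that size can lie near the arrays' background. Of the 14 macrophage markers measured, 9 had an average change with macrophages above 0 and 0 were called. The mean over the 14 was 5.70 to 5.73 alone, 5.70 to 5.77 in FAC, 5.72 to 5.80 in RAW and 5.73 to 5.78 in RAW_FAC. The defining markers Ptprc (3.32 to 3.72), Adgre1 (4.74 to 5.21) and Itgam (3.49 to 3.98) were low, while 3 of the 14 markers lay above 6.82, Cd14 (11.90 to 12.19), Cd53 (7.12 to 7.88) and Laptm5 (6.75 to 7.002). The average change with macrophages was 0.21 for Cd53 and 0.17 for Lyz2; their part in the serpin values was not tested. Of the 10 hepatocyte markers, 3 lay above 6.82 (Apob, Afp and Hnf4a), while albumin (Alb) read 5.02 to 5.38 and Ttr 6.36 to 6.59. Among the epithelial markers 5 of 6 lay above it, and among the fibroblast markers 2 of 7. In RNA from whole cultures, fewer cells of a type and less RNA per cell cannot be told apart.

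The measurable serpins of these cells were almost all of clade B. Of the 40 members, 11 had a mean above 6.82 and 29 did not. The 11 were 10 clade B genes and Serpinh1. All 14 clade A members were low, with signals from 2.71 to 6.11 over the 12 arrays, among them the alpha-1-antitrypsin genes Serpina1b and Serpina1c, the acute-phase gene Serpina3n, Serpina5 (protein C inhibitor), Serpina6 (corticosteroid-binding globulin) and Serpina7 (thyroxine-binding globulin). Low as well were Serpinc1 (antithrombin, 4.29 to 4.76), Serpind1 (heparin cofactor II, 5.36 to 5.54), Serping1 (C1 inhibitor, 3.87 to 4.24), Serpinf1 and Serpinf2 (5.96 to 6.998), and Serpini1 (neuroserpin) and Serpini2 (4.03 to 5.27). Serpinf2 encodes alpha-2-antiplasmin, which inhibits plasmin, and Serpinf1 encodes pigment epithelium-derived factor.

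Within clade B, Serpinb6a, an inhibitor of cathepsin G, read 13.64 to 13.79, its relative Serpinb6b 12.53 to 12.69, and Serpinb9b 13.22 to 13.56. Serpinb9, an inhibitor of granzyme B, read 11.48 to 12.10. Levels of different probe sets cannot be ranked against each other, so these are not an order of abundance. The low clade B members included Serpinb5 (maspin) at 5.44 to 5.92, Serpinb7 (megsin) at 2.94 to 3.43 and Serpinb2, the plasminogen activator inhibitor 2, at 4.18 to 5.72. The plasma serpins of liver were thus low in a line labelled as of liver origin.

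Serpinb1b is a close relative of Serpinb1a, the mouse inhibitor of neutrophil elastase and cathepsin G. Its log2 signals in replicates 1, 2 and 3 were 6.34, 7.22 and 7.03 alone and 7.08, 7.79 and 7.67 in FAC. They were 6.54, 7.34 and 7.12 in RAW and 6.75, 7.95 and 7.61 in RAW_FAC. With iron each array was higher than the array of the same replicate number without it, in 6 of 6 such pairs (differences 0.21 to 0.74), but the groups overlapped because replicate 1 read low throughout. The group means were 6.86 ± 0.46 alone and 7.51 ± 0.38 in FAC (SD, n = 3), a log2 difference of 0.65 or 1.57-fold. They were 6.998 ± 0.41 in RAW and 7.44 ± 0.62 in RAW_FAC (SD, n = 3), a difference of 0.44 or 1.35-fold.

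**Figure D1:**
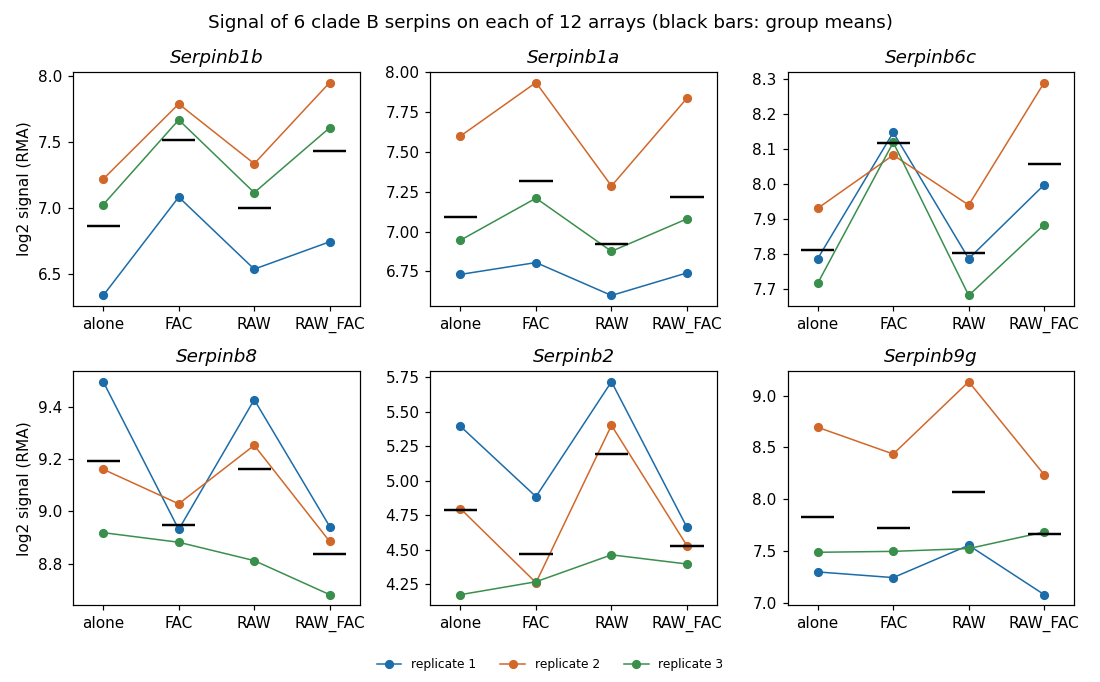
Log2 signal (y axis) of 6 clade B serpins in the 4 groups (x axis), with 1 point per array, lines joining arrays of the same replicate number and black bars for group means. Serpinb1b, Serpinb1a and Serpinb6c were higher with iron in 6 of 6 same-number pairs and Serpinb8 lower in 6 of 6, while the replicate numbers lay apart, most of all for Serpinb9g.

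Serpinb1a gave 6.73, 7.60 and 6.95 alone, 6.80, 7.94 and 7.21 in FAC, 6.60, 7.29 and 6.88 in RAW, and 6.74, 7.84 and 7.08 in RAW_FAC. Replicate 2 was the highest in every group, and the groups overlapped. Iron again went with a higher signal in 6 of 6 same-number pairs, by 0.07 to 0.55. The change was 0.23 ± 0.32 (SE) from alone to FAC and 0.30 ± 0.32 from RAW to RAW_FAC when the spread between replicate numbers counted as error. In that model the first change was -0.08 without FAC replicate 2, the second -0.01 without RAW_FAC replicate 2, and the average of 0.26 fell to 0.11 when either of these arrays was left out; with the block the average stayed between 0.21 and 0.29 with any 1 array left out. A second Serpinb1a probe set, of a type that can read several transcripts and low at a mean of 4.15, gave an average change with iron of 0.15 against 0.26 for the one used.

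Serpinb6c belongs to the same subgroup as Serpinb6a. Its signals were 7.79, 7.93 and 7.72 alone and 8.15, 8.08 and 8.12 in FAC, with no overlap between the groups. They were 7.79, 7.94 and 7.68 in RAW and 7.997, 8.29 and 7.88 in RAW_FAC, where the lowest array with iron lay below the highest without. The difference was 0.31 ± 0.10 (SE) without and 0.25 ± 0.10 with macrophages, 1.24-fold and 1.19-fold, and 6 of 6 same-number pairs were higher with iron by 0.15 to 0.40. Its single probe set is of a type that can match several transcripts, so a share of this signal may belong to a near-identical copy.

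Other clade B serpins were lower with iron; they were singled out after their values were seen. Serpinb8, an inhibitor of the proprotein convertase furin, read 9.49, 9.16 and 8.92 alone, 8.93, 9.03 and 8.88 in FAC, 9.43, 9.25 and 8.81 in RAW, and 8.94, 8.89 and 8.68 in RAW_FAC. All 6 same-number pairs were lower with iron, by changes of -0.56 to -0.04 that were smallest in replicate 3, and the groups overlapped. The mean changes were -0.24 ± 0.16 (SE) without and -0.33 ± 0.16 with macrophages. A second Serpinb8 probe set gave an average change of -0.30 against -0.29.

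Serpinb2 was a low gene with a wide spread. It gave 5.40, 4.80 and 4.18 alone, 4.89, 4.26 and 4.27 in FAC, 5.72, 5.40 and 4.46 in RAW, and 4.66, 4.53 and 4.40 in RAW_FAC. Replicates 1 and 2 were lower with iron in both settings, whereas replicate 3 changed by 0.09 and -0.07. The mean changes were -0.32 ± 0.32 (SE) and -0.66 ± 0.32. Serpinb9c, also low, had changes of -0.42 and -0.20, but its second probe set gave an average change of -0.05 against -0.31. For Serpinb9g the changes were -0.10 ± 0.48 and -0.41 ± 0.48, small beside a spread of 7.08 to 9.14 over the arrays.

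The tests were run across all 18194 genes with limma, and a gene was called at an adjusted p under 0.05. In the model with 1 mean per group, 0 of 40 members were called for FAC against alone (0% of all genes) and 0 for RAW_FAC against RAW (0% of all genes). At an unadjusted p under 0.05, 2 members passed in each comparison (Serpinb6c and Serpinf2, then Serpinb6c and Serpini1). That was 5% of the members in each, beside 551 and 1038 genes, or 3.03% and 5.71% of all genes. For the average change with iron over both settings, 0 members were called, against 0.0055% of all genes. There 6 members, Serpinb1b among them, passed at an unadjusted p under 0.05. They were 15% of the members, beside 1185 genes or 6.51% of all genes.

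Arrays with the same replicate number deviated together from their group means, so the model was also fitted with the number as a block. It then called 1 member for FAC against alone, Serpinb1b, beside 0.033% of all genes. It called 0 of 40 for RAW_FAC against RAW, beside 0.0769% of all genes; there the change of Serpinb1b was 0.44 ± 0.08 (SE), with a limma adjusted p of 0.0893. For the average change it called 2 members, Serpinb1b and Serpinb6c, beside 0.791% of all genes. In these comparisons, in the order given, 7, 7 and 9 members passed at an unadjusted p under 0.05 with the block. Serpinb1b was among them each time. They were 17.5%, 17.5% and 22.5% of the members, beside 6.57%, 11.15% and 12.27% of all genes. The call of Serpinb1b for FAC against alone was lost when any 1 array other than RAW_FAC replicate 1 or 2 was left out, and it was called for RAW_FAC against RAW without RAW_FAC replicate 1. As Serpinb1b was among the reasons for the choice of the family, nothing is read from its calls. Same-number arrays deviated together more within an iron condition than across, so SE and p of these blocked iron comparisons may be too small.

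The average change of Serpinb6c with iron was 0.28 in both models, ± 0.05 (SE) with the block. It was called only in the blocked model (limma adjusted p 0.0443, against 0.473 without the block). That call was lost when any 1 array other than FAC replicate 2 was left out, with adjusted p up to 0.142, while the change stayed between 0.24 and 0.33. The blocked averages of the others were 0.26 ± 0.06 for Serpinb1a (limma adjusted p 0.0811), -0.29 ± 0.07 for Serpinb8 (0.115), -0.49 ± 0.13 for Serpinb2 (0.138) and -0.31 ± 0.11 for Serpinb9c (0.289). None of these 4 passed. The description of Serpinb1b is an average change of 0.54 ± 0.06, between 0.50 and 0.60 with any 1 array left out of the blocked model and between 0.41 and 0.72 without the block.

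**Figure D2:**
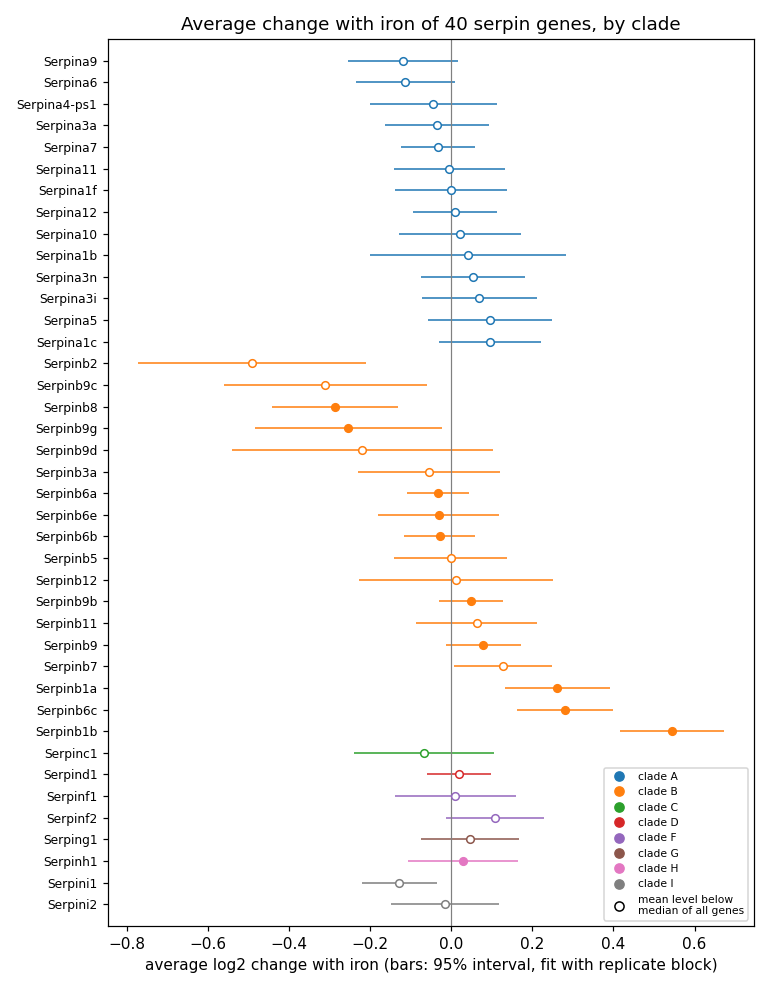
Average log2 change with iron over both settings (x axis) of the 40 members, ordered by clade and change (y axis), with 95% intervals from the limma fit with the replicate number as a block; open symbols have a mean below 6.82. The 8 members past 0.2 in either direction, Serpinb1b among them, are all of clade B. All but Serpinb6c also differed widely between replicate numbers. The share of all genes past 0.2 was not counted. The 22 members outside clade B lie between -0.13 and 0.11.

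The larger changes with iron lay in clade B and ran in both directions. Of the 40 members, 8 had an average change of more than 0.2 in size, and all 8 were of clade B: Serpinb1a, Serpinb1b and Serpinb6c higher, and Serpinb2, Serpinb8, Serpinb9c, Serpinb9d and Serpinb9g lower. The same-number changes of Serpinb9d ran from -0.85 to 0.37 and were above 0 for replicate 2 in both settings. The 8 include Serpinb1b, which was among the reasons for the choice of the family. All of the 8 but Serpinb6c were also among the members whose signal differed most between replicate numbers, as described below. The share of all genes past 0.2 was not counted, so the 8 cannot be set against it. The 22 members outside clade B lay between -0.13 (Serpini1) and 0.11 (Serpinf2). Clade B also held 10 of the 11 members above 6.82, though Serpinb2, Serpinb9c and Serpinb9d of the 8 were low. Low signals can understate changes, and the part of the signal level here was not tested. Over the family, 20 of 40 members had an average change above 0, and the median change was 0.0050 against -0.0019 for all genes. In size, the median change was 0.05 for the members and 0.05 for all genes. Among genes above 6.82 it was 0.08 for the 11 members and 0.05 for all.

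None of 4 other clade B members with high signals was called. The average change with iron in the blocked model was -0.03 ± 0.03 (SE) for Serpinb6a, -0.03 ± 0.04 for Serpinb6b, 0.05 ± 0.04 for Serpinb9b and 0.08 ± 0.04 for Serpinb9, whose second probe set (mean 10.41) gave 0.16. Serpinh1, which helps collagen fold in the endoplasmic reticulum, read 10.16, 10.17 and 10.15 alone, 10.27, 10.03 and 10.03 in FAC, 10.31, 10.04 and 10.15 in RAW, and 10.20, 10.17 and 10.45 in RAW_FAC. Its groups overlapped, and its average change was 0.03 with a 95% interval of plus or minus 0.14.

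By plain overlap of the 3 arrays per group, 5 members had no overlap between FAC and alone (Serpina3n, Serpina9, Serpinb6c, Serpinb7 and Serpinf2), that is 12.5% against 7.56% of all genes. For RAW_FAC against RAW it was 1 member, Serpini1, 2.5% against 9.75%. No member separated in both settings. In 6 of 6 same-number pairs, 5 members moved 1 way with iron, 12.5% against 8.13% of all genes: Serpinb1a, Serpinb1b and Serpinb6c higher, Serpinb8 and Serpina9 lower. As Serpinb1b was among the reasons for the choice of the family, its place in this count was given beforehand, and nothing is read from the count. Serpina9 is a low gene of clade A known from germinal centre B cells, and its pair differences ran from -0.25 to -0.01.

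**Figure D3:**
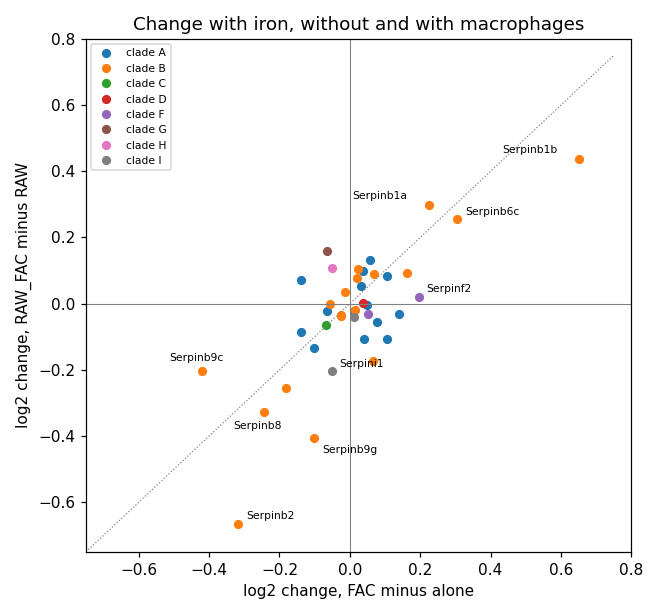
Log2 change with iron without macrophages (FAC minus alone, x axis) and with macrophages (RAW_FAC minus RAW, y axis), with 1 point per member, coloured by clade; the dotted line marks equal changes. Serpinb1b lies at 0.65 and 0.44 and Serpinb2 at -0.32 and -0.66, and most members lie near 0 on both axes.

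The test of whether the change with iron differed with macrophages called 0 of 40 members without the block (0% of all genes) and 0 with it (0% of all genes). At an unadjusted p under 0.05 it passed 1 member, Serpina7, beside 540 genes without the block and 790 with it. For Serpinb1b the 2 changes differed by -0.21 ± 0.12 (SE, blocked), for Serpinb2 by -0.35 ± 0.25, for Serpinb1a by 0.07 ± 0.12 and for Serpinb6c by -0.05 ± 0.11. For none of the 40 was the iron change shown to depend on the macrophages.

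In the comparisons with macrophages in the insert no member was called. Without the block, 0 members were called for RAW against alone (0% of all genes), 0 for RAW_FAC against FAC (0% of all genes) and 0 for the average change with macrophages (0.011% of all genes). With it the counts were 0 (0% of all genes), 0 (0% of all genes) and 0 (0.055% of all genes). At an unadjusted p under 0.05, 0 members passed in each of the 3 comparisons without the block, beside 693, 574 and 717 genes; with it 1 (Serpinb2), 1 (Serpinb9) and 2 (Serpinb1a and Serpinb9) passed, or 2.5%, 2.5% and 5% of the members, beside 1115, 1020 and 1274 genes, or 6.13%, 5.61% and 7.002% of all genes. The median average change was 0.0059 for the members and 0.0054 for all genes.

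The largest average change with macrophages in the family was that of Serpinb2, at 0.23 ± 0.13 (SE, blocked; limma adjusted p 0.771). From alone to RAW it was higher in 3 of 3 same-number pairs, by 0.29 to 0.60, with a mean change of 0.41 ± 0.18 (SE, blocked; limma adjusted p 0.801). From FAC to RAW_FAC it was higher in 2 of 3, with a mean change of 0.06 ± 0.18. The groups overlapped in both comparisons.

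Serpinb9 and Serpinb1a were the 2 members with 1 direction in 6 of 6 same-number pairs, 5% of the members against 5.89% of all genes. Serpinb9 read 11.48, 11.71 and 11.80 alone and 11.61, 11.77 and 11.95 in RAW, then 11.51, 11.82 and 11.87 in FAC and 11.56, 11.94 and 12.10 in RAW_FAC. Each array with macrophages was slightly higher than its same-number partner, by 0.05 to 0.23, and the groups overlapped. Its average change was 0.12 ± 0.04 (SE, blocked; limma adjusted p 0.562), and its second probe set gave 0.06. Serpinb1a was lower with macrophages by pair differences of -0.31 to -0.07, with an average of -0.14 ± 0.06 (SE, blocked; limma adjusted p 0.690). Its second probe set, whose low signal can lie near background, gave 0.08. By overlap, 1 member separated RAW from alone (Serpinb7; 2.5% against 8.76% of all genes) and 2 separated RAW_FAC from FAC (Serpina7 and Serpinf2; 5% against 6.65%). Outside clade B no average change with macrophages exceeded 0.09 in size.

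The largest differences within the family followed the replicate number rather than the groups. For Serpinb9g, a relative of Serpinb9, the mean of the 4 arrays was 7.29 for replicate 1, 8.63 for replicate 2 and 7.55 for replicate 3, a range of 1.33. The same range was 0.95 for Serpinb1a, 0.90 for Serpinb1b, 0.84 for Serpinb2, 0.57 for Serpinb9c, 0.44 for Serpinb9d, 0.40 for Serpinb9 and 0.37 for Serpinb8. These 8 members were among the 5% of all genes with the widest range, and all 8 were of clade B. Of the 8, 6 lie on chromosome 13, and 5 of those 6 were highest in replicate 2.

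**Figure D4:**
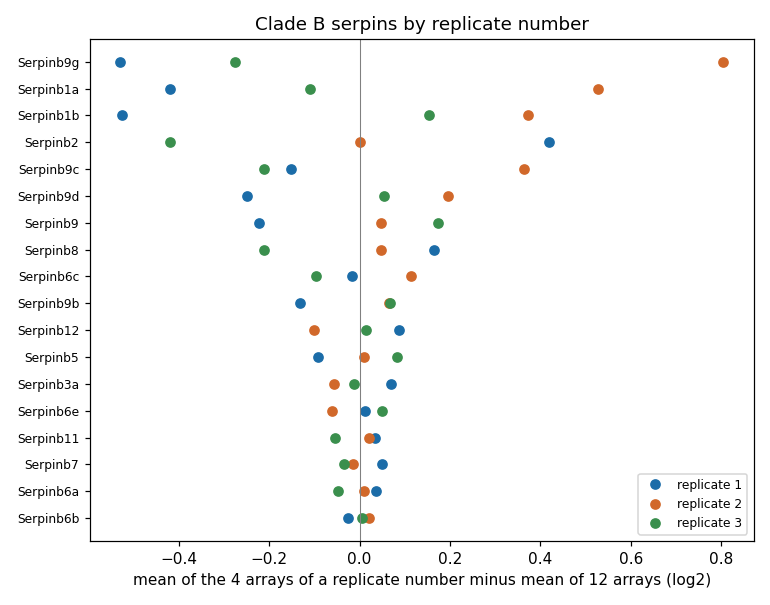
Difference of the mean of the 4 arrays of each replicate number from the mean of all 12 (log2, x axis) for the 18 clade B serpins (y axis, ordered by range). Serpinb9g, Serpinb1a, Serpinb1b, Serpinb9c and Serpinb9d were highest in replicate 2, whereas Serpinb2 and Serpinb8 were highest in replicate 1.

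A separate probe set that the annotation assigns to Serpinb9e, Serpinb9f, Serpinb9g and Serpinb9h, and that was outside the 40 for having several symbols, showed the pattern of Serpinb9g. It read 10.07, 9.77, 10.24 and 9.55 in replicate 2 of alone, FAC, RAW and RAW_FAC, above every other array of the same group. Over all 40 members the median range was 0.12, as over all genes (0.12). Among genes above 6.82 it was 0.21 for the 11 members and 0.14 for all. The range exceeded the size of the average change with iron in 32 of 40 members (80%) and in 82.7% of all genes. Even with no effect, a range over the replicate numbers tends to exceed a difference between 2 larger sets of arrays. Nothing is therefore read from this count. What the replicate numbers stand for is not given in the labels, and its part in these values was not tested.

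The proteases that serpins control, and other inhibitors, were looked up from fixed lists. For plasminogen activation, 6 of 9 measured genes had an average change with iron above 0 and the median was 0.0044. In this list tissue plasminogen activator (Plat, 9.79 to 10.34) changed by 0.08 ± 0.06 (SE, blocked), urokinase (Plau, 6.81 to 7.42) by 0.06 ± 0.06 and the urokinase receptor (Plaur, 11.14 to 11.57) by 0.02 ± 0.05. For coagulation the count was 14 of 20 (median 0.02), for complement serine proteases 4 of 7 (0.04), for leukocyte granule proteases and caspases 4 of 12 (-0.02), and for membrane serine proteases and kallikreins 6 of 12 (-0.0016). Casp1, the inflammatory caspase, was low at 3.08 to 3.29. None of the genes on these lists was called for iron or macrophages, with or without the block.

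Among the cysteine cathepsins, lysosomal proteases that several clade B serpins can meet inside cells, 5 of 11 genes had an average change with iron above 0 (median -0.01). Ctsl read 13.80 to 14.04 and Ctsb 11.98 to 12.28, with changes of -0.04 ± 0.03 (SE, blocked) and 0.0015 ± 0.05. With macrophages 11 of 11 cathepsins had an average change above 0, with a median of 0.04, and none was called. Of the other inhibitors, 16 of 22 lay above 0 with iron (median 0.03), and none was called. Slpi, a secreted inhibitor of neutrophil elastase that is no serpin, read 8.22 to 10.31 and was higher with iron in 6 of 6 same-number pairs, by 0.49 ± 0.11 on average (SE, blocked), with a limma adjusted p of 0.0792. Timp1, an inhibitor of metalloproteases, changed by -0.07 ± 0.05. The hepatocyte marker Afp, alpha-fetoprotein, moved with iron by 0.45 on average and was called with the block; its part in the serpin values was not tested.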

How the data were processed

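Expression was measured on 12 Affymetrix mouse arrays, 3 per group. The authors deposited log2 signals; per the submitters' processing notes RMA and affy were used, with no versions given. No further scaling was applied. RMA equalises the arrays' distributions, so a shift of all genes together would not be seen. Precision is limited by the number of arrays.

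Among the 45101 probe sets, 34958 carried 1 gene symbol, 932 several and 9211 none. The last 2 kinds were left out, among them 3 probe sets shared by several serpins. The probe set with the highest mean was kept per gene, which gave 18194 genes; 12 of the 40 members had more than 1 probe set. Of the members' probe sets, 10 are of types that can match several transcripts. Symbols were matched to RefSeq (GRCm38.p6) by gene ID for 40 of 40 members.

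Linear models with 1 mean per group were fitted over all 12 arrays with limma 3.58.1 in R 4.3.3 (empirical Bayes, 4.90 prior degrees of freedom). Tests were two-sided with Benjamini-Hochberg adjustment over all genes. Average changes are the mean of the 2 comparisons of a kind. The replicate number, taken from the titles, was added as a block (4.48 prior degrees of freedom). In deviations from the group means, the 18 pairs of arrays with equal numbers correlated at 0.26 to 0.53 and the 36 other pairs at -0.35 to -0.01, so the numbers pair the samples although their meaning is not given. Among equal numbers the median was 0.431 within an iron condition and 0.315 across. The code was tested on simulated data.

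The alternatives were the block, leaving out each array, leaving out low genes, centring, quantile normalization, other choices of probe set, moderation with trend and robust, and array weights. Combining them with the block was decided after seeing the data. The members and gene lists were chosen with earlier results of these data known. Values per array were given for members called in either model, for the Serpinb1 genes and for the clade member above the median level with the largest average change; Serpinb2, Serpinb8, Serpinb9, Serpinb9c and Serpinb9g were added after their values were seen. Tables and plots were made in Python 3.11.15 (pandas 2.3.3, numpy 2.4.6, matplotlib 3.10.9).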

Additional observations from a re-analysis of the deposited data

Results flagged for a closer look

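Serpina7, which encodes thyroxine-binding globulin and was low on all arrays, moved with iron in opposite directions in the 2 settings. Its log2 change was -0.14 from alone to FAC (same-number pairs from -0.22 to -0.07) and 0.07 from RAW to RAW_FAC (0.01 to 0.18). The 2 changes differed by 0.21 ± 0.10 (SE), with an unadjusted p of 0.0494 and an adjusted p of 1.00 in limma, and of 0.0286 and 0.999 with the replicate block. The difference did not pass the correction over all genes.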

How the results depend on the processing

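Without the replicate block, every alternative run, each left-out array included, called 0 members in each of the 7 comparisons. With the block as the single change, 1 member was called for FAC against alone and 2 for the average change with iron. The other settings were combined with the block after the data were seen. For FAC against alone, 1 member was called with low genes left out, quantile normalization, mean or most variable probe sets, trend and robust moderation, or array weights, and 0 with centring. For RAW_FAC against RAW, 1 was called with low genes left out and with trend and robust moderation. The member called in these 2 comparisons was Serpinb1b each time, and it was also among those called for the average change. As it was among the reasons for the choice of the family, nothing is read from its calls. For the average change 2 were called with quantile normalization, centring and the mean of probe sets, 1 with the most variable probe set, 3 with weights (Serpinb1a with Serpinb1b and Serpinb6c) and 4 with low genes left out or trend and robust moderation (also Serpinb8). Calls over all genes rose with them, from 144 with the block to 191 with weights, 333 with low genes left out and 381 with trend and robust moderation.

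When 1 array was left out of the blocked model, 1 to 2 members were called for the average change, Serpinb1b always among them. The second was Serpinb6c without FAC replicate 2 and Serpinb9c without RAW replicate 3. For FAC against alone the count was 1 without RAW_FAC replicate 1 or 2 and 0 otherwise. For RAW_FAC against RAW it was 1 without RAW_FAC replicate 1 and 0 otherwise. The member was Serpinb1b each time. A further check covered only Serpinb1a, Serpinb1b, Serpinb6c and Serpinh1, over all comparisons and alternatives. Serpinb2, Serpinb8, Serpinb9c, Serpinb9g and the other members were outside it. No called change of the members checked reversed, and direction was checked only for called values. Of 1092 values of these members, 1039 stayed on their side of the threshold and moved by no more than 1 SE. As the model without the block called 0 members, staying there meant staying uncalled. A further 43 passed the threshold in the alternative alone, and 10 moved by more than 1 SE without passing it. Most of the 43 were values of Serpinb1b, from whose calls nothing is read, and the others were of Serpinb6c and Serpinb1a. Without the block, the average change of Serpinb9g, -0.25 over all arrays, ranged from -0.43 without FAC replicate 2 to 0.01 without RAW replicate 2. Low signals, the 3 arrays per group and the blocked model's sharing of the replicate effect across conditions limit the precision.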
